A study of Mus musculus with 2 samples.

Results

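Kupffer cells of one single-cell library were ranked by how much of their RNA encoded major histocompatibility complex (MHC) class II, and the cells at the top of the ranking were compared with the cells at the bottom. A cell's class II share was the percentage of its unique molecular identifiers (UMIs, 1 per captured transcript) that came from H2-Aa, H2-Ab1, H2-Eb1 and Cd74. Of the 8907 barcodes of library 1, out of 18633 in the series, 1073 were kept as Kupffer cells. They had at least 200 genes, at least 3000 UMIs and at most 20% mitochondrial UMIs. At least 1% of their UMIs came from the Kupffer genes Clec4f, Cd5l and C1qa, and less than 0.05% came from 6 endothelial genes. None had a UMI of the dendritic cell genes Flt3, Xcr1 and Cd209a or of the B cell gene Cd79a. The 357 cells with the highest share form the high group, the next 359 the middle group and the last 357 the low group. The mitochondrial limit left out most of the deep barcodes: 3962 had enough UMIs, and 1682 of those passed it.

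The series holds F4/80-enriched non-parenchymal liver cells of untreated male mice aged 8 to 10 weeks, 1 of genotype Spta wt/wt and 1 littermate of genotype Spta sph/sph. Spta encodes alpha-spectrin of the red cell membrane, and sph is an allele whose homozygous carriers have fragile red cells. F4/80 is a surface protein of mouse macrophages, so the cells were taken by a macrophage marker, and each suspension was loaded for a target of 10000 cells. Barcodes end in 1 or 2, and no source used here ties either ending to a mouse. Library 1 therefore carries no genotype here. All cells compared come from 1 library, cells are not replicates, and no test was run. Intervals are exact 95% intervals that cover counting error only.

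MHC class II molecules carry peptides from ingested proteins to the surface of antigen-presenting cells, where CD4 T cells read them. Cd74, the invariant chain, guides new class II molecules into endosomes, where cathepsins trim it and H2-DM exchanges its last fragment for a peptide. The coactivator CIITA, made from Ciita, is recruited to the X and Y boxes of class II promoters and sets how much class II a cell makes. Kupffer cells are the resident macrophages of the liver sinusoids, known for clearing particles and old red cells from blood, and they carry class II at levels that vary between cells.

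The promoters of 3 class II genes are shown for the letters of the X and Y boxes, in the 2 ranking genes H2-Aa and H2-Eb1 and in H2-DMb1, which was not used to rank. Each runs 5′ to 3′ over 250 bases before and 50 bases after a transcript start, from RefSeq, build GRCm38.p6. For H2-DMb1 that start lies inside the gene as annotated here, which begins at chr17:34153072. Positions below are counted from the RefSeq start. Capitals mark GCAAC, the core of the X box, and ATTGG, the Y box. H2-Aa is at chr17:34287774-34288073 on the minus strand, H2-Eb1 at chr17:34305617-34305916 on the plus strand and H2-DMb1 at chr17:34152941-34153240 on the plus strand.
H2-Aa: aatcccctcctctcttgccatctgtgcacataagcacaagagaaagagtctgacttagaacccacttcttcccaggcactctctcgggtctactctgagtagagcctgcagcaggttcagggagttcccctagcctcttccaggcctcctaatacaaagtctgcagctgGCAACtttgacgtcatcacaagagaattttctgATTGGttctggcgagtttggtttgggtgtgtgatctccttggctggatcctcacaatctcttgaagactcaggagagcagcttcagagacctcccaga
H2-Eb1: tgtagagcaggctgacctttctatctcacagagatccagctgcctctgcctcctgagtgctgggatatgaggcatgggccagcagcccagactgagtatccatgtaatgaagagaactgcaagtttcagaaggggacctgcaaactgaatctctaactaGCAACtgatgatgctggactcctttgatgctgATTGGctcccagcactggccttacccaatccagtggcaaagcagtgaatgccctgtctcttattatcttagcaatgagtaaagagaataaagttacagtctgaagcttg
H2-DMb1: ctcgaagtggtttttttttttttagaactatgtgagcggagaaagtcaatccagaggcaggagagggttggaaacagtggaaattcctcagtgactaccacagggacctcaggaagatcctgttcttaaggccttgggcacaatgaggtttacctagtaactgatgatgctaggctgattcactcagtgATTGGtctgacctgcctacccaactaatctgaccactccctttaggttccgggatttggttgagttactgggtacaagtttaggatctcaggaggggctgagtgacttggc
In H2-Aa the X core began 81 bases and the Y box 48 bases before the start, with 28 bases between them. In H2-Eb1 the positions were 91 and 59 bases, with 27 bases between. H2-DMb1 had the Y box at 61 bases and no exact GCAAC in the window. Before its Y box it reads gtaactgatgatgct, where H2-Eb1 reads GCAACtgatgatgct. Only exact letters were searched, so a variant of the X core is not marked.

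The letters GCAAC occurred on either strand in 35.2% of 32851 promoters of the same length, and ATTGG in 37.4%. Both on 1 strand in that order, 20 to 35 bases apart, occurred in 261 promoters (0.794%), among them H2-Oa and H2-Ob with 28 and 25 bases between. Of the genes measured in the comparison, which leaves out the ranking genes, 41 had such a pair. None of these 41 was at least 1.5-fold higher in the high group and 2 were at least 1.5-fold lower, with a median log2 ratio of -0.08. All 4888 measured genes with a promoter gave 107 higher, 123 lower and a median of -0.01. A match of letters is a description and not a binding site.

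The class II share spread widely and without a gap. Its median over the 1073 cells was 1.09%, the 5th and 95th percentiles were 0.368% and 2.42%, and the range ran from 0% in 1 cell to 4.78%. The SD of 0.660 percentage points compares with 0.145 for counting alone at these depths. The high group ran from 1.396% to 4.78% (median 1.82%), the middle group from 0.842% to 1.396% (median 1.09%) and the low group from 0% to 0.841% (median 0.600%). The edges cut through a continuous range: the lowest high cell had 1.39594% and the highest middle cell 1.39581%, and the lowest middle cell had 0.841837% and the highest low cell 0.840637%.

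**Figure D1:**
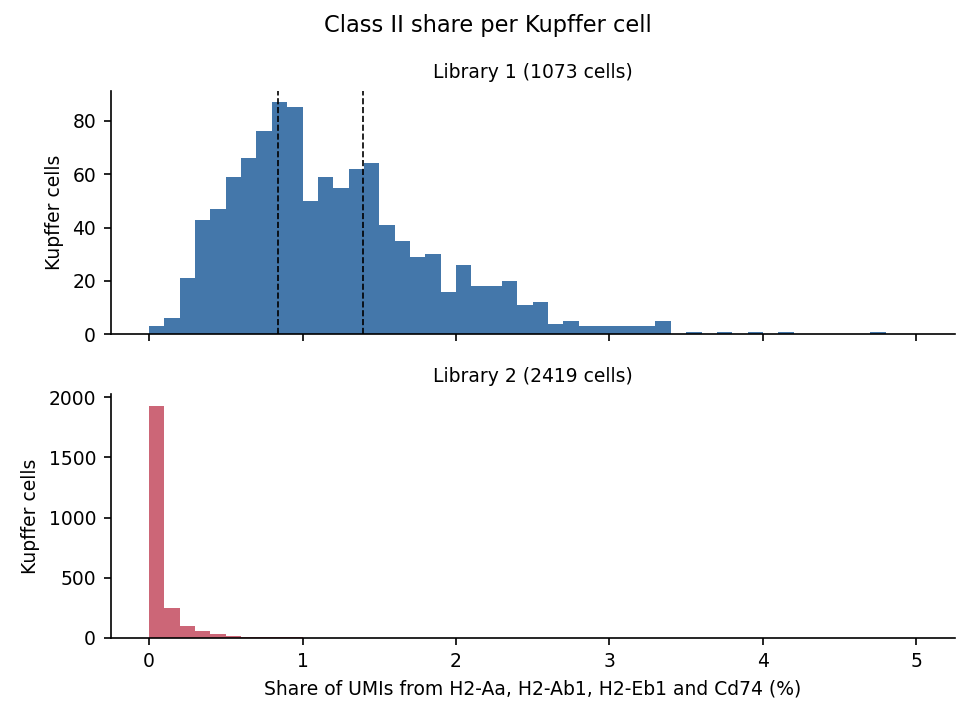
Histograms of the class II share (x axis, percent of a cell's UMIs) of Kupffer cells in library 1 (1073 cells, top) and library 2 (2419 cells, bottom), with the number of cells on the y axis and dashed lines at the edges of the low and high groups of library 1. Library 1 forms 1 broad peak around its median of 1.09%, and library 2 sits next to 0 with a median of 0.0230%.

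Other cells of the library set the scale for these shares, which made the groups and are given as a description. In library 1, 55 of 56 dendritic droplets, defined by dendritic markers and a low Kupffer share, reached the high group's lower edge, with a median share of 3.45% (0.864% to 5.87%). Endothelial droplets, 137 in number, had a median of 0.0208%, beside 0.600% in the low group. The same rule kept 2419 Kupffer cells in library 2, of which 671 had no class II UMI and 17 (0.703%) exceeded the upper edge of the library 1 low group. The library 2 low group had a median share of 0%, so a ranking there spans another range of class II than in library 1.

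By the rule, cells of all 3 groups carried Kupffer markers, and the groups differed in depth. The summed share of Clec4f, Cd5l and C1qa, which the rule used, had medians of 1.62%, 1.62% and 1.60% of UMIs in the high, middle and low groups. Its members differed in direction: of all UMIs, Clec4f gave 4607 counts per 1000000 (CPM) in the high and 3938 in the low group, and Cd5l, a secreted protein of tissue macrophages, 6057 and 7021. All 10 listed Kupffer markers together, which include the 3 genes of the rule, gave 28344, 26667 and 25433 CPM. Median UMIs were 7436, 6588 and 5499 (3000 to 29011 over all cells), median genes 2734, 2562 and 2328, and median mitochondrial shares 12.2%, 13.3% and 14.6%. The groups held 11, 11 and 5 barcodes whose sequence was also found in library 2. Depth therefore moved with class II share, and ratios were also taken with cells ranked within 3 strata of depth. Doublets were not called, and beyond the genes of the rule none were removed.

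The ranking genes rose together. In CPM of all UMIs of the group, H2-Aa had 4429 in the high, 2535 in the middle and 1357 in the low group, and H2-Ab1 had 3541, 2025 and 1063. H2-Eb1, a second class II beta chain, had 2426, 1312 and 652, and Cd74 had 9249, 5141 and 2811. These values made the groups and are given as a description. When each gene was left out of the ranking and cells were ranked on the other 3, its level was still 2.94-fold higher for H2-Aa (2.83 to 3.06), 2.98-fold for H2-Ab1 (2.86 to 3.12), 3.37-fold for H2-Eb1 (3.20 to 3.57) and 2.77-fold for Cd74 (2.70 to 2.84). Cd74 had more UMIs than any other of the 4. Ranked without it, 59 of the 140 genes that were at least 1.5-fold higher in the high group, a count described below, were higher again, out of 82, and ranked on Cd74 alone 99 were, out of 176.

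Outside the 4 ranking genes, which were left out of the totals behind every ratio, the groups were alike in most genes. Of 6151 genes with at least 20 CPM over the high and low groups together, 140 (2.28%) were at least 1.5-fold higher in the high group and 143 (2.32%) at least 1.5-fold lower. The median log2 ratio of all 6151 was -0.01. With a minimum of 50 CPM, 47 (1.40%) of 3364 genes were higher and 45 (1.34%) lower, so most of the 140 and 143 had less than 50 CPM. Below, "higher" and "lower" members of a gene list are those past 1.5-fold, and 2.28% and 2.32% are the background for each count.

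Within the class II pathway, the regulator and H2-DM went with the ranking genes and the endosomal proteases divided. Of the 15 listed genes in the matrix, 9 were measured, of which 2 were higher, 1 was lower and 6 lay between, with a median log2 ratio of 0.17. Ciita (ENSMUSG00000022504, chr16:10480059-10528418 in GRCm38) had 37.2 CPM in the high, 19.99 in the middle and 14.6 in the low group. This is a 2.56-fold ratio (1.71 to 3.90) on 105 against 33 UMIs. H2-DMa (ENSMUSG00000037649, chr17:34119541-34139101), the alpha chain of the peptide exchanger, had 401, 291 and 224 CPM, a 1.79-fold ratio (1.61 to 1.99). Its partner H2-DMb1 had 509, 419 and 350 CPM and a 1.45-fold ratio (1.33 to 1.59), just under the limit. For all 3 genes the middle group lay between the others.

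The proteases that trim Cd74 did not move as one. Ctss, cathepsin S, which makes the last cuts in Cd74 in many antigen-presenting cells, had 2965, 2551 and 2256 CPM (1.31-fold higher in the high group, 1.27 to 1.36). Lgmn (ENSMUSG00000021190, chr12:102394084-102439813), an asparaginyl endopeptidase of the lysosome, went the other way with 2888, 3706 and 4411 CPM. Its level was 1.53-fold higher in the low than in the high group (1.48 to 1.57). Over the alternatives its log2 ratio ranged from -0.71 to -0.45, so that it was under 1.5-fold in some of them, ranking within depth strata (-0.54) included. Ctsl, cathepsin L, had a log2 ratio of -0.26. March1 and March8, ubiquitin ligases that remove class II from the surface, had 0.17 and -0.06, and Rfx5, a subunit of the X box factor, had 0.04. Since Lgmn alone holds a large part of the list's UMIs, the summed level of the 15 genes was lower in the high group (log2 -0.09, -0.12 to -0.06), opposite in sign to the median. Too few UMIs were found for H2-DMb2 (27 in the high and 10 in the low group), H2-Oa (7 and 3) and H2-Ob (7 and 8).

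Ciita was the least certain of these. With droplets left out that held any UMI of other dendritic, B, T or natural killer markers, which left 123 cells a group, its log2 ratio was 0.48 against 1.35, under the 1.5-fold limit. H2-DMa then had 0.67 against 0.84. Leaving out droplets with a UMI of the recruited-cell receptors Cx3cr1 or Ccr2 gave 1.08 for Ciita and 0.77 for H2-DMa. Within the 3 depth strata Ciita had log2 ratios of 0.86, 1.46 and 1.35 from shallow to deep cells, and H2-DMa 0.78, 0.76 and 0.87.

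**Figure D2:**
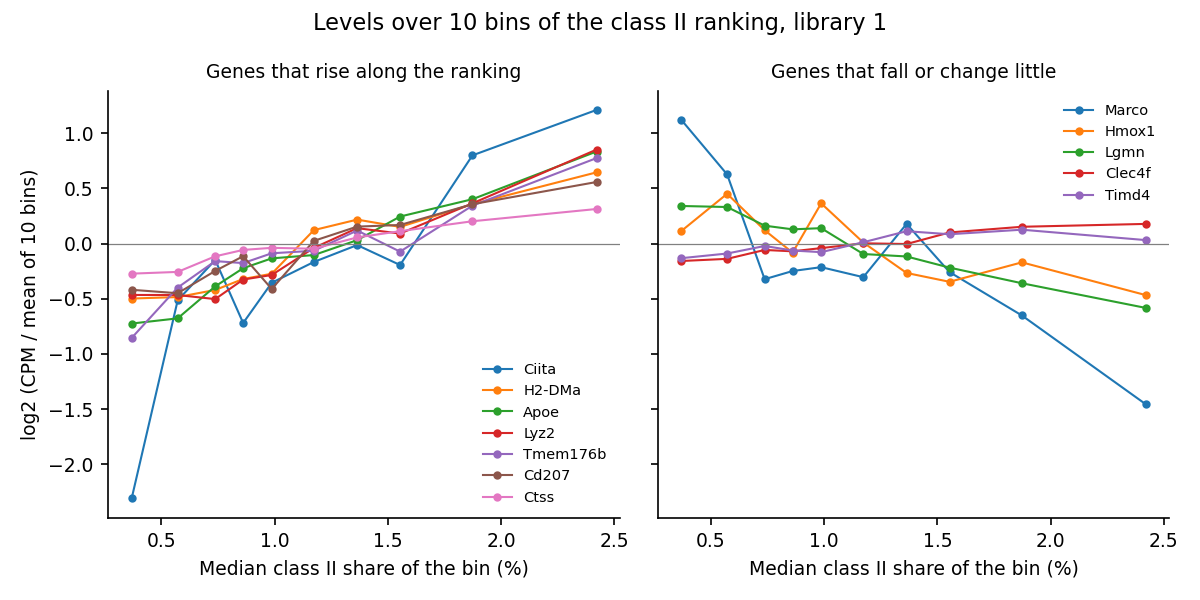
Levels of 12 genes over 10 bins of 107 or 108 Kupffer cells each along the class II ranking of library 1. The x axis is the median class II share of a bin (percent) and the y axis log2 of the bin's CPM over the mean of the 10 bins. Ciita goes from 4.78 CPM in the lowest bin to 54.8 in the highest, Apoe from 4391 to 12936, and Marco from 1066 to 178, while Clec4f and Timd4 stay near their mean.

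Finer bins showed where along the ranking these genes changed. Ciita had 4.78 CPM in the lowest bin on 3 UMIs and 54.8 in the highest on 48 UMIs, but between the 2nd and 8th bins it stayed between 14.4 and 23.5 CPM. H2-DMa ran from 215 to 475 CPM and Ctss from 2141 to 3214. Lgmn fell from 4657 to 2455 CPM. Marco lost most of its level within the first 3 bins, from 1066 over 755 to 391 CPM, stood between 391 and 554 CPM up to the 8th bin, and ended at 178.

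The share of cells with a UMI was compared after thinning every cell to 3000 UMIs. Ciita was then found in 9.80% of high (6.92 to 13.4), 5.57% of middle (3.44 to 8.47) and 3.92% of low cells (2.16 to 6.49). Without thinning the values were 22.1%, 13.1% and 8.68%. In endothelial droplets of library 1 (median 4027 UMIs), which should lack it, 0 of 137 had a Ciita UMI, which allows a share of up to 2.19% (3 counts; the exact upper bound is 2.66%), and in dendritic droplets 50.0% did. H2-DMa was found in 67.5%, 56.0% and 48.5% of high, middle and low cells and in 1.46% of endothelial droplets (unthinned 90.8%, 79.9%, 67.2% and 2.92%). The low group's Ciita interval begins below that exact bound, while its H2-DMa share lies far above that of the endothelial droplets.

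**Figure D3:**
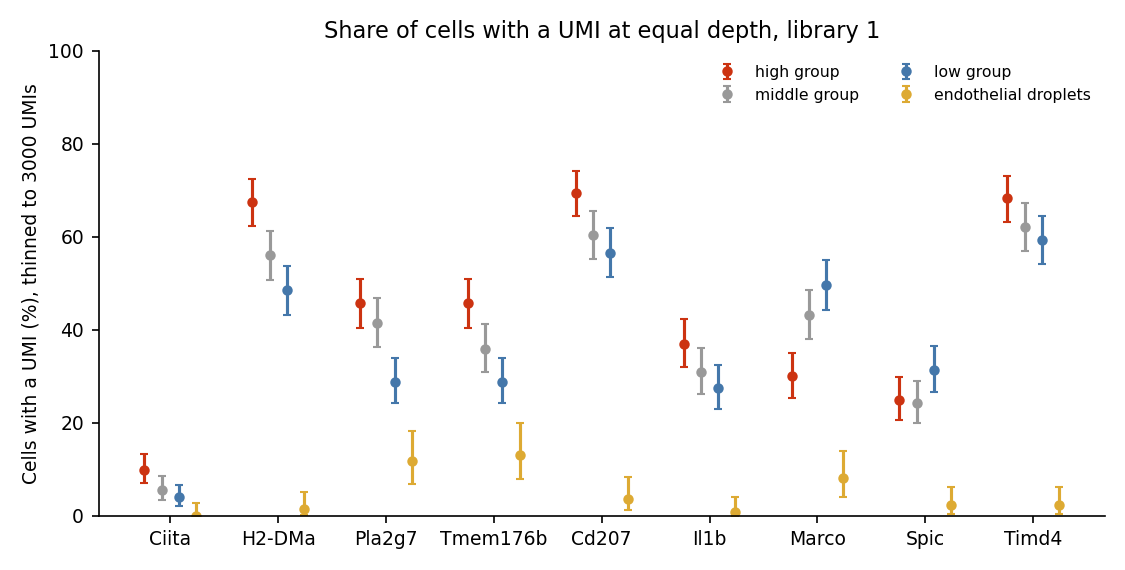
Share of cells with a UMI (y axis, percent) of 9 genes (x axis) in the high, middle and low groups and in endothelial droplets of library 1, each cell thinned to 3000 UMIs, with exact 95% binomial intervals. From the high to the low group H2-DMa goes from 67.5% to 48.5%, Tmem176b from 45.7% to 28.9% and Marco from 30.0% to 49.6%.

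The genes with the highest ratios included 2 apolipoproteins, lysozyme and langerin. Among genes with at least 100 CPM, Apoe (ENSMUSG00000002985, chr7:19696109-19699188), the apolipoprotein that macrophages secrete with cholesterol, led. It had 10070.3 CPM in the high, 6803 in the middle and 4971 in the low group (2.03-fold, 1.98 to 2.07). Its neighbour Apoc1 on the same chromosome had 2129, 1604 and 1258 CPM (1.69-fold, 1.62 to 1.77). The interquartile ranges of Apoe in single cells did not overlap, at 6766 to 12096 CPM in high and 3170 to 5853 CPM in low cells. Lyz2, lysozyme of myeloid cells, had 2433, 1692 and 1292 CPM (1.88-fold, 1.80 to 1.97). Pla2g7, which hydrolyses platelet-activating factor, had 233, 157 and 121 CPM (1.92-fold, 1.67 to 2.22).

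The other 8 of the 12 highest ratios ranged from 1.63-fold to 1.79-fold. Besides H2-DMa they were H2-T23, the class I molecule Qa-1 (341, 254 and 202 CPM), Lgals3bp, Ubl5, Lilra5, Tmem176a, Tmem176b and Cd207. Tmem176a and Tmem176b encode a related pair of endosomal membrane proteins. They overlap at their 5′ ends on opposite strands of chromosome 6. Tmem176b had 224, 163 and 136 CPM and Tmem176a 122, 87.4 and 74.6 CPM. After thinning, Tmem176a was found in 24.9% of high (20.5 to 29.8), 21.7% of middle and 19.9% of low cells (15.9 to 24.4). In endothelial droplets it was found in 16.8% (11.0 to 24.1). These intervals overlap, so the thinned shares of Tmem176a are not read as a difference. Tmem176b was found in 45.7%, 35.9% and 28.9% of high, middle and low cells and in 13.1% of endothelial droplets. Cd207 (ENSMUSG00000034783, chr6:83671215-83677857), langerin, a lectin of Langerhans cells and liver capsular macrophages, had 557, 410 and 342 CPM (1.63-fold, 1.495 to 1.78). Thinned to equal depth, Cd207 was found in 69.5%, 60.4% and 56.6% of high, middle and low cells and in 3.65% of endothelial droplets (unthinned 88.2%, 78.3%, 72.0% and 3.65%). For each of these genes the middle group lay between the high and low groups. Among cells with at most 10% mitochondrial UMIs (76 a group) 6 of the 12 highest stayed past 1.5-fold, and with a Kupffer share of at least 2% (40 a group) 7 did.

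Marco, an uptake receptor, and genes of dividing cells were highest in the low group. Marco (ENSMUSG00000026390, chr1:120474538-120505024), a scavenger receptor for bacteria and particles, had 299.9 CPM in the high, 476 in the middle and 673 in the low group, a 2.24-fold higher level in low cells (2.06 to 2.44). Droplets with at least 10 Marco UMIs made up 6.44%, 11.4% and 12.6% of the groups and held 439 of 846 UMIs in the high and 999 of 1525 in the low group. Thinned, Marco was found in 30.0% of high (25.3 to 35.02), 43.2% of middle and 49.6% of low cells (44.3 to 54.9), against 8.03% of endothelial droplets. Unthinned, the shares were 44.5%, 61.3%, 61.6% and 13.1%. Its log2 ratio was -1.27, -0.61 and -1.20 in the shallow, middle and deep strata.

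Of the other genes among the 12 lowest ratios, Hmgb2, Tubb5 and Tuba1b serve chromatin and spindle and were 1.97-fold, 1.82-fold and 1.63-fold higher in low cells. Without cells that had at least 2 UMIs of the cell cycle genes Mki67, Top2a, Birc5, Cdk1, Ccnb1, Ccnb2 and Ccna2, their log2 ratios (high over low) were -0.05, -0.12 and -0.14, close to 0, while that of Marco was -1.19. Rad21, a cohesin subunit, had 1.65-fold in low cells and a log2 ratio of -0.45 without those cells against -0.73 with them. Dck (deoxycytidine kinase), Uox (urate oxidase, typical of hepatocytes), Hsd17b12 and Med28 were 1.53-fold to 1.70-fold higher in low cells. Hepatocyte markers as a list were level, with 1873, 1901 and 1864 CPM in the 3 groups. The last pair were the globins Hbb-bs and Hba-a1. Of 1443 globin UMIs in the low group, 1413 lay in 4 droplets, and without droplets with 10 or more globin UMIs the log2 ratios were 0.51 and 0.27, opposite in sign to -3.75 and -3.46 with them.

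Cell cycle genes were low in the high group. Of 8 measured members of the proliferation list, 6 were lower in high cells and none was higher, with a median log2 ratio of -1.57. Top2a, the topoisomerase of dividing cells, had 12 UMIs in the high and 145 in the low group (4.25, 48.1 and 64.0 CPM from high to low). Mki67, the Ki-67 antigen, had 36 against 143 UMIs (12.8, 42.9 and 63.1 CPM). Stmn1, which destabilises microtubules, had 8.86, 68.1 and 91.4 CPM, and Mcm5, part of the replicative helicase, had 9.57, 40.0 and 42.8. Cells with at least 2 UMIs of cell cycle genes made up 3.08% of the high (1.55 to 5.45), 7.80% of the middle (5.25 to 11.1) and 10.9% of the low group (7.88 to 14.6). Cells with any UMI of Mki67 or Top2a made up 10.9%, 17.5% and 17.1%, so that the middle and low groups were level. Median depth was 7436 UMIs in high and 5499 in low cells. The shares of cycling cells were not taken at equal depth, and the part of depth in them was not tested.

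**Figure D4:**
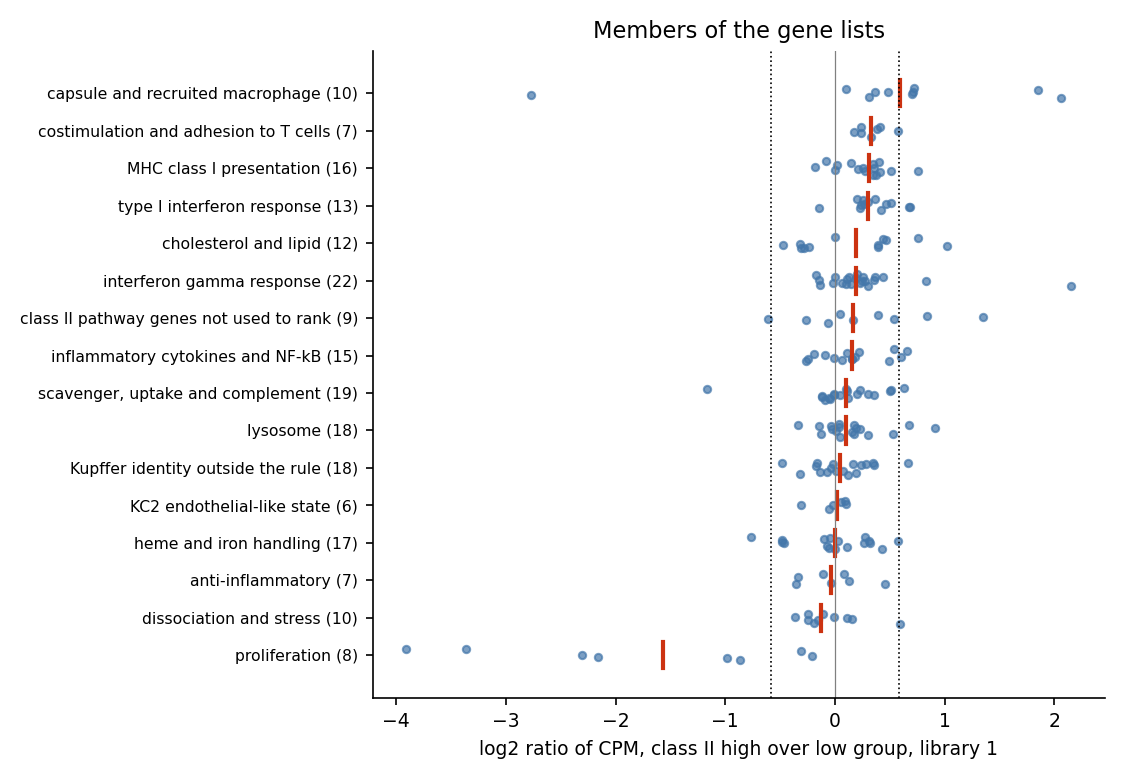
Each point is the log2 ratio of CPM, high over low group of library 1, of a measured member of 16 gene lists (number of measured members in brackets), red bars are medians and dotted lines mark 1.5-fold. The proliferation list is the one farthest to the left (median -1.57) and the capsule and recruited macrophage list the one farthest to the right (median 0.60).

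Genes of capsule and recruited macrophages were the list with the largest share of higher members. Of 10 measured, 5 were higher and 1 lower, with a median log2 ratio of 0.60. Ccr2, the receptor that brings monocytes out of blood and marrow, had 60.6, 32.2 and 14.6 CPM (171 against 33 UMIs, 4.16-fold, 2.85 to 6.24). Ms4a7, a macrophage membrane protein, had 39.7, 20.4 and 11.0 CPM (3.60-fold, 2.32 to 5.80), and Tmem176a, Tmem176b and Cd207 were the others. Cd207, Tmem176b and Tmem176a were not limited to the high group. After thinning they were found in 56.6%, 28.9% and 19.9% of low cells and in 3.65%, 13.1% and 16.8% of endothelial droplets. Plac8, Ear2, Lgals3 and Tgfbi had log2 ratios of 0.49, 0.36, 0.31 and 0.10 and were neither higher nor lower. Whether the high group held more capsule or recruited macrophages was not tested. Cx3cr1, the fractalkine receptor, was under the 20 CPM minimum, with 80 UMIs in the high and 19 in the low group (3.38-fold, 2.03 to 5.91). The lower member, Fn1 (fibronectin), rested on few cells: 170 of its 236 UMIs in the low group lay in 3 droplets.

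Ccr2 and Cx3cr1 were found in few cells. Thinned, Ccr2 was present in 5.32% of high (3.23 to 8.19), 3.06% of middle and 2.80% of low cells (1.35 to 5.09), against 0.730% of endothelial and 57.1% of dendritic droplets (unthinned 8.96%, 5.57%, 4.20%, 0.730% and 67.9%). The high and low intervals overlap. Droplets with a UMI of either receptor made up 13.2%, 8.64% and 6.16% of the groups. Without them the log2 ratios of Apoe (1.02), Lyz2 (0.91), Cd207 (0.69), Tmem176b (0.66) and Marco (-1.16) stood beside 1.02, 0.91, 0.71, 0.72 and -1.17 with them. Tmem176a had 0.57 without them against 0.71, and it alone of the 12 highest ratios fell under 1.5-fold.

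Markers of other cells were taken over whole lists, as CPM of all UMIs with the ranking genes included, so that Cd207 has a slightly lower value here than above. The 13 dendritic markers summed to 154, 143 and 129 CPM from high to low, with Flt3, Xcr1 and Cd209a at 0 by the rule, Ccr7 and Siglech at 0, and Batf3, Clec9a and Clec10a making up most of the sum. In the high group 7 of the 13 had a UMI, and in the low group 6. The 9 monocyte and capsule markers summed to 820, 630 and 493 CPM, of which Cd207 gave 546, 405 and 340. B cell markers summed to 33.7, 30.0 and 29.8 CPM, endothelial markers to 271, 239 and 245, T and natural killer markers to 0.695, 1.10 and 3.51, and erythroid markers to 54.6, 37.3 and 637. The part of these other cells in the results was not tested beyond the droplets left out above.

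Kupffer identity genes outside the rule differed little. Of 18 measured, 1 was higher and none lower, with a median log2 ratio of 0.05. The higher one was C1qb, a chain of complement C1q, with 2647, 2056 and 1668 CPM (1.59-fold, 1.53 to 1.65). Timd4, a receptor for dying cells that marks Kupffer cells seeded before birth, had 401, 375 and 351 CPM (1.14-fold, 1.04 to 1.25). Its log2 ratio of 0.19 was 0.01 in the middle depth stratum and -0.23 among cells with at most 10% mitochondrial UMIs. Clec4f, which the rule used, had 4699, 4216 and 3961 CPM, and Vsig4, a complement receptor, 2822, 2678 and 2510.3. Spic and Nr1h3, transcription factors of iron-handling macrophages and of Kupffer cells, had log2 ratios of -0.48 and -0.32.

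Interferon genes were slightly higher in high cells, with few past 1.5-fold. Of 22 measured genes of the interferon gamma response, which induces Ciita in many cells, 2 were higher and none lower (median log2 ratio 0.20). The higher ones were Irgm1, an interferon-induced GTPase (40.8, 34.1 and 22.9 CPM, 1.78-fold, 1.27 to 2.52), and Cxcl9, a T cell attractant (111 against 20 UMIs, 4.46-fold, 2.75 to 7.58). Cxcl9 was also found in 26.3% of thinned endothelial droplets, above its 4.48%, 3.62% and 1.12% in high, middle and low cells (unthinned 29.2%, 8.40%, 6.13% and 3.36%). These shares are therefore at or under that of another cell type in the library and are not read as a difference in expression. In the type I interferon list 2 of 13 were higher, Ifitm3 (log2 0.69) and Oasl2 (0.68), with a median of 0.30.

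Genes for presentation by class I and for contact with T cells lay mostly above 0 without reaching 1.5-fold. Of 16 measured class I genes, 1 was higher, H2-T23, and none lower (median 0.31). B2m, the shared light chain, had 2154, 1816 and 1691 CPM (log2 0.35), while H2-K1, a classical heavy chain, had 2123, 2059 and 2121 CPM (log2 0.00). Of 7 measured costimulation and adhesion genes none passed in either direction (median 0.33, all 7 above 0). Cd48 had the largest ratio among them at log2 0.57, followed by Cd83 at 0.41 and Cd40 at 0.38. Cd86, the main ligand of CD28 on many antigen-presenting cells, had 118, 106 and 100.2 CPM (1.18-fold, 0.993 to 1.40), an interval that includes 1.

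Heme and iron genes, the equipment for recycling red cells, gave 1 lower and no higher member of 17 (median -0.00). Hmox1, which degrades heme, had 848, 1021 and 1182 CPM, 1.39-fold more in low cells (1.32 to 1.47), with a log2 ratio of -0.74, -0.50 and -0.32 in the shallow, middle and deep strata. Slc48a1, a heme transporter of the phagosome, had 146, 180 and 201 CPM (log2 -0.47). The lower member was Tfrc, the transferrin receptor, with 65 against 89 UMIs (1.70-fold more in low cells, 1.22 to 2.38). Slc11a1, a metal transporter of the phagosome, was on the other side with 177, 129 and 119 CPM (log2 0.57). Cd163, the receptor for haptoglobin bound to hemoglobin, had 703, 728 and 754 CPM (log2 -0.10), with 0.32, -0.37 and -0.06 in the 3 strata.

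Inflammatory genes gave 2 higher and no lower members of 15 (median 0.15), namely Il1b and the lipopolysaccharide coreceptor Cd14 (148, 101 and 97.5 CPM). Il1b, the interleukin 1 beta precursor, had 198, 124 and 126 CPM (1.57-fold, 1.36 to 1.82), so the middle group was level with the low group. Its log2 ratio was 0.65, but 0.01 in the middle depth stratum and 0.12 without droplets holding other dendritic, B, T or natural killer markers. Il10 had 14 and 17 UMIs, too few to compare. Of 7 anti-inflammatory genes none passed in either direction (median -0.04).

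Few lysosomal genes passed. Of 18 measured, 2 were higher and none lower, with 13 above 0 (median 0.10): Lyz2 and Cst3, the cysteine protease inhibitor cystatin C, with 1507, 1125 and 942 CPM (1.60-fold, 1.52 to 1.69). Grn, progranulin, had 2028, 2278 and 2556 CPM and was 1.26-fold more in low cells. In the scavenger and complement list 1 of 19 was higher, the anaphylatoxin receptor C5ar1 (log2 0.63), and 1 lower, Marco (median 0.11). The cholesterol and lipid list had Apoe and Apoc1 as its higher members among 12 and none lower (median 0.20). Pltp, a phospholipid transfer protein, had a log2 ratio of 0.47 and Scd2, a fatty acid desaturase, -0.47. No member of the 6 measured genes of the endothelial-like Kupffer state passed (median 0.02). In the dissociation and stress list 1 of 10 was higher, Jun (log2 0.60), with a median of -0.13, and none was lower.

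Apoe, Lyz2, H2-DMa, Pla2g7, Cd207 and Tmem176b kept their direction within each depth stratum. Over the shallow, middle and deep strata the log2 ratios were 1.08, 0.996 and 0.95 for Apoe, 0.70, 0.89 and 0.92 for Lyz2, 1.28, 0.63 and 0.99 for Pla2g7, and 0.65, 0.64 and 0.61 for Cd207. Ranked within strata, the high and low groups had medians of 6842 and 6445 UMIs, and of 6148 genes 118 (1.92%) were higher and 136 (2.21%) lower. Of these, 83 and 101 were also in the counts of 140 and 143.

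Ranked by the same rule in library 2, Kupffer cells gave fewer genes past 1.5-fold, from other numbers of cells and over another range of class II. Of 5404 genes measured there, 18 (0.333%) were at least 1.5-fold higher in the 806 cells with the most class II and 7 (0.13%) lower. H2-DMa (log2 0.97), H2-DMb1 (0.91), Cd207 (1.57), Tmem176b (1.57) and Apoe (0.64) lay on the same side as in library 1, and the first 4 had larger ratios there than in library 1. The library 2 groups also lay farther apart in the ranking genes, from 71.9-fold for H2-Aa to 143-fold for Cd74. In library 1 these genes differed from 3.26-fold for H2-Aa to 3.72-fold for H2-Eb1. The sizes of the ratios in the 2 libraries are therefore not comparable. Depth went the other way there, with medians of 8367.5 UMIs in the high and 9593 in the low group of library 2, against 7436 and 5499 in library 1. Ciita had 27 against 3 UMIs in library 2, and Lgmn, with a log2 ratio of -0.16, and Marco, with -0.44, were also lower in its high group. Lyz2 had a log2 ratio of -0.05 there and Pla2g7 0.24. Over 5192 genes measured in both libraries the log2 ratios correlated with a Pearson coefficient of 0.22 and a Spearman coefficient of 0.17, across genes that share, within each library, the same cells and the same ranking genes. Of 101 genes higher in library 1, 69 were above 0 in library 2, where 58.7% of all genes were above 0. Of 97 lower genes, 60 were below 0, where 41.3% of all genes were below 0. Whether the libraries differ was not tested.

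**Figure D5:**
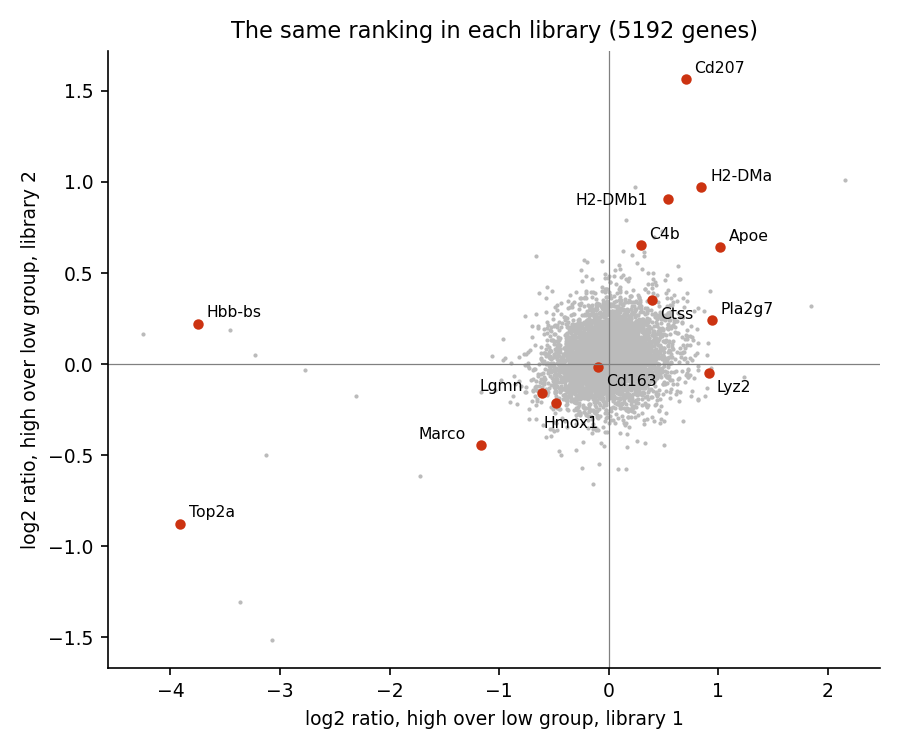
Each grey point is a gene measured in both libraries (5192 genes), with the log2 ratio of the high over the low group in library 1 on the x axis and in library 2 on the y axis, and red points are named genes. Apoe, H2-DMa and Cd207 lie above 0 on both axes, Marco and Lgmn below 0 on both, and Lyz2 lies at 0.91 on the x axis and -0.05 on the y axis.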

How the data were processed

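Single-cell RNA was measured with the 10x Genomics 3′ v3 kit in 2 libraries from 2 mice, 1 per genotype. The authors deposited 1 matrix of whole-number UMI counts per gene and barcode for both libraries, made with Cell Ranger 3.0.1, per the submitters' processing notes. Those notes also name GRCm38.p5 and R 3.6.1. The gene annotation used for counting is not given in the sources used here. Nothing ties a barcode ending to a mouse, so no genotype was compared.

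Counts were summed over the cells of a group and scaled to a total of 1000000 after leaving out the 4 ranking genes (CPM). A ratio of CPM carries a conditional exact 95% interval, a CPM a Poisson interval and a share a Clopper-Pearson interval. Genes with at least 20 CPM over both groups were measured, and 1.5-fold set a call. No p-value was computed, because cells of 1 library are not replicates, and PCR, capture and mouse-to-mouse error are not in the intervals. The genes named were the 12 highest and 12 lowest ratios among those with at least 100 CPM, without numbered predicted genes, a fixed set given always (such as Ciita, Cd207, Cx3cr1, Marco, Timd4, Hmox1 and Il1b), and members of 18 gene lists with at least 20 CPM. Ifi30 was the 1 listed gene not in the matrix. Markers of other cells came from 13 lists. The members, lists and rules were chosen with earlier results of these data known.

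Shares of cells with a UMI were taken after thinning each cell to 3000 UMIs (no cell of the groups was shallower). Depth strata were 3 groups of cells by UMIs, each ranked alone. Dendritic and endothelial droplets had under 0.5% Kupffer UMIs and at least 2 UMIs of Flt3, Xcr1 and Cd209a, or at least 0.5% endothelial UMIs, respectively. Promoters came from RefSeq, GRCm38.p6, and gene positions from GRCm38. Figures were drawn with matplotlib 3.10.9. Values were computed with scipy 1.17.1, numpy 2.4.6 and pandas 2.3.3 under python 3.11.15. Only the ratio and its interval were tried on simulated Poisson counts. That simulation had no differences between cells and no ranking, so it cannot speak for genes whose UMIs lie in few droplets. Tried as alternatives were 19 settings of ranking, groups, filters and scaling, of which 2 were added after seeing the data (without globin-rich droplets, and without cycling cells).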

Additional observations from a re-analysis of the deposited data

Results flagged for a closer look

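For 4 genes among the highest and lowest ratios of library 1, the log2 ratio had the opposite sign in library 2. Ratios are of the class II high over the low group. Only genes whose library 2 interval left out 0 were listed, and the difference was not tested. Lyz2 had 0.91 in library 1 and -0.05 in library 2. Uox had -0.77 in library 1 and 0.26 in library 2. Hbb-bs had -3.75 and 0.22, and Hba-a1 had -3.46 and 0.19. The globin values of library 1 rest on 4 droplets of the low group. Without droplets with 10 or more globin UMIs, Hbb-bs and Hba-a1 had 0.51 and 0.27 in library 1, on the same side as in library 2. Library 2 held globin UMIs in nearly all Kupffer cells, with 788 of 806 high and 791 of 806 low cells having at least 10.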

How the results depend on the processing

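Of the 24 genes with the highest and lowest ratios, 22 kept their direction under all 19 alternatives, and the exceptions were Hbb-bs (0.51) and Hba-a1 (0.27) without globin-rich droplets. Some alternatives could not show a change of direction. Minimums of 50 and 5 CPM changed which genes were counted and left every ratio as it was. A size factor, or totals without mitochondrial genes, moved these ratios by a small common amount (Apoe 1.03 and 0.99 against 1.02). Fewer stayed past 1.5-fold. With at most 10% mitochondrial UMIs 6 of the 12 highest did, and Apoc1 (0.39), H2-T23 (0.21), Lgals3bp (0.43), Ubl5 (0.40), Tmem176b and Cd207 (0.48) did not, while 9 of the 12 lowest did, without Dck (-0.11), Lgmn and Med28. With a Kupffer share of at least 2%, 7 of the highest and 6 of the lowest did, with Cd207 at 0.41, H2-T23 at 0.44 and Tubb5 at -0.25. With 536 cells a group 4 of the highest and 9 of the lowest did. With a Kupffer share of at least 2% (40 cells a group) Cx3cr1 had -0.28 and Il1b -0.053, both opposite in sign to all Kupffer cells, and Hmox1 had 0.06, Apoe 0.47 and Tmem176b 0.10. Counts of genes at least 1.5-fold higher and lower were 259 and 250 for the 268 highest and 268 lowest cells, 30 and 57 for the 536 highest and 536 lowest, 543 and 575 with at most 10% mitochondrial UMIs (76 cells a group), 843 and 947 with a Kupffer share of at least 2%, 47 and 45 with a minimum of 50 CPM, 561 and 525 with a minimum of 5 CPM, and 526 and 529 without droplets of other dendritic, B, T or natural killer markers (123 cells a group). Ranked without Cd74, 82 genes were higher. Without cycling cells 148 were higher and 111 lower. The summed log2 ratio of the class II pathway, -0.09, was -0.049 within depth strata, -0.029 ranked without Cd74, -0.14 ranked on Cd74 alone, -0.055 with at least 5000 UMIs and -0.0078 with at most 10% mitochondrial UMIs. Timd4 had -0.23 with at most 10% mitochondrial UMIs, against 0.19. For these changes the cause was not tested. No paired analysis was possible because the 2 groups are cells of 1 library and no fit was made. At this depth, genes with few UMIs, such as Ciita and Cx3cr1, carry wide intervals. Differences under 1.5-fold were not called, and the smallest difference detectable in low genes was not computed.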

Other observations

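Ribosomal protein genes and genes of the respiratory chain stood slightly above 0. Of 80 measured ribosomal protein genes, 66 were above 0 in the high over the low group, with a median log2 ratio of 0.22, and 1 was at least 1.5-fold higher. Nuclear genes of the respiratory chain, a list chosen after the ratios had been seen, gave 54 of 71 above 0, a median of 0.20, 6 higher and none lower. Within depth strata the values were 49 of 71 above 0, a median of 0.14, and 2 higher. Mitochondrially encoded genes went the other way, with 11 of 15 measured below 0 and a median of -0.12, beside median mitochondrial shares of 12.2% in high and 14.6% in low cells. The longest transcript had a median of 2550.5 bases for the 140 higher genes, 3078 for the 143 lower genes and 3565 for all measured genes with a length. Within depth strata these were 2681, 3193 and 3562 bases.

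In library 2 the share of cells with at least 2 UMIs of cell cycle genes was 7.32% of the high (5.62 to 9.34), 11.2% of the middle and 10.7% of the low group (8.62 to 13.0). The proliferation list gave no higher and 2 lower members of 7 there, with a median log2 ratio of -0.16.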
